A study of Mus musculus with 9 samples.

Results

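Thrombospondins and the proteins that bind them were followed through RNA sequencing of the mouse hippocampus. The set was 9 named genes of the 47643 genes in the count matrix: the thrombospondins Thbs1, Thbs2, Thbs3 and Thbs4, and the receptors Itga2, Cd36, Cd47, Sirpa and Cacna2d1. They were chosen by name, through their Ensembl identifiers, and all 9 were found with reads. Comp, the fifth thrombospondin gene, was added for comparison.

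The samples were hippocampi of mice at postnatal week 6, in 3 groups of 3 libraries. MRL/mpj, labelled wild type and untreated, is the MRL strain with intact Fas. MRL/lpr, labelled with the genotype MRL-lpr and untreated, carries the lpr allele of Fas on the MRL background, and is a mouse model of lupus. MRL/lpr+MSC has the genotype MRL-lpr and was treated with mesenchymal stem cells, with no dose, route or day given in the sources used here. The strain field of the labels names C57BL/6 for every library, whereas the methods of the study name MRL/MpJ-Fas lpr and MRL/MpJ mice. The study describes each MRL/mpj and MRL/lpr column of its sequencing as 1 mouse. For libraries under the name MRL/lpr+MSC no source says so. Because of the naming conflict given next, which of the lpr libraries the study's words cover was not settled. For both lpr groups, p-values measure the spread between these libraries.

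A conflict in the group names bears on every result. In the FPKM sheet that accompanies the study, the 3 columns named MRL/mpj are the MRL/mpj libraries of the matrix, but the 3 columns named MRL/lpr hold the libraries that the deposited labels call MRL/lpr+MSC. The deposited labels were kept, and which naming is right was not settled here. Fas itself was no check of the labels: it stood at 1.83 ± 0.183 CPM (the count scaled to library size; mean ± SD, n = 3) in MRL/mpj, 1.80 ± 0.469 in MRL/lpr and 1.31 ± 0.445 in MRL/lpr+MSC, and it was called in no comparison.

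Thrombospondins are large secreted glycoproteins of the extracellular matrix that act on cells by binding surface receptors. Thbs1 and Thbs2 form trimers and carry the type 1 repeats that bind CD36, while Thbs3, Thbs4 and Comp form pentamers without these repeats. In the brain they are known as astrocyte-secreted factors that promote the formation of excitatory synapses through alpha2delta-1, the product of Cacna2d1. CD47 is a receptor for Thbs1 on many cells, and it also binds SIRPalpha on microglia and other myeloid cells, where it restrains phagocytosis.

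Per unit of gene length, the receptors Sirpa and Cd47 were the most abundant members and Itga2 the least. The mean over the 9 libraries was 58.6 ± 7.53 FPKM (SD) for Sirpa, 47.7 ± 3.97 for Cd47 and 16.4 ± 3.72 for Cacna2d1. Among the thrombospondins, Thbs4 led with 6.48 ± 3.76 FPKM, ahead of Thbs3 with 2.05 ± 0.240, Thbs2 with 1.87 ± 0.555 and Thbs1 with 1.08 ± 0.713. Cd36 at 0.411 ± 0.246, Comp at 0.389 ± 0.146 and Itga2 at 0.160 ± 0.120 FPKM closed the order. Of neighbours in this order, Cd47 and Cacna2d1 were the one pair whose values did not overlap over the 9 libraries. Sirpa exceeded Cd47 in 8 of 9 libraries, Thbs3 exceeded Thbs2 in 6 of 9, and Cd36 exceeded Comp in 3 of 9, so these neighbours were not separated by the spread.

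**Figure D1:**
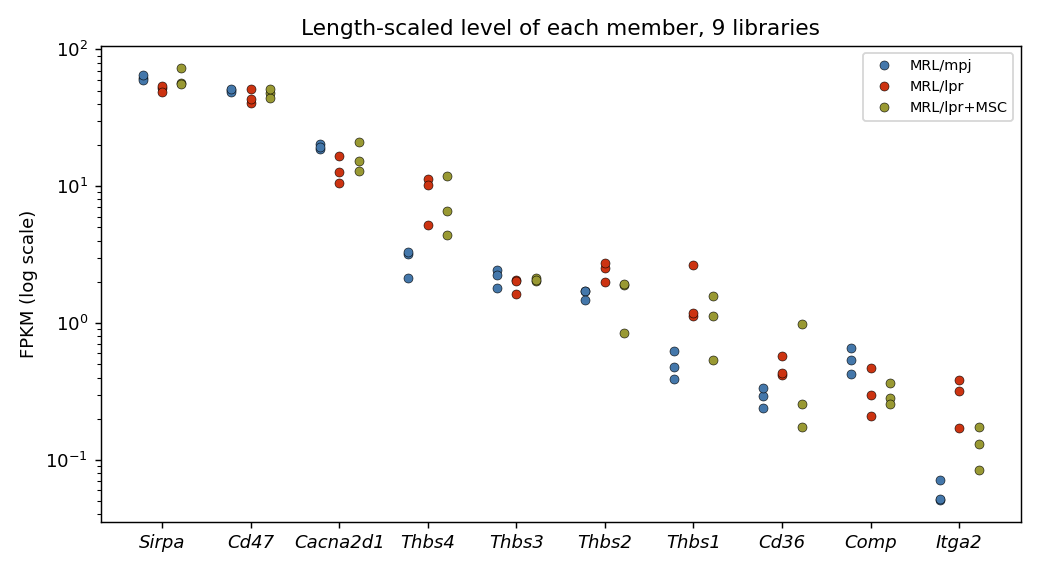
FPKM (log axis) of each thrombospondin and receptor gene, ordered by its mean, with one point for each of the 9 libraries, coloured by group. Sirpa and Cd47 sit between 40.8 and 73.7 FPKM in every library, whereas Itga2 does not exceed 0.384.

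The order of the thrombospondins was not the same in every group. In MRL/mpj the levels were 2.87 ± 0.637 FPKM for Thbs4, 2.17 ± 0.334 for Thbs3, 1.63 ± 0.137 for Thbs2 and 0.498 ± 0.118 for Thbs1 (SD, n = 3). In MRL/lpr Thbs2, at 2.42 ± 0.383 FPKM, stood above Thbs3, at 1.90 ± 0.242, while in MRL/lpr+MSC it stood below, at 1.56 ± 0.621 against 2.07 ± 0.0597. In MRL/lpr the level of Thbs4 was 8.92 ± 3.24 FPKM, and the ratio of Thbs4 to Thbs3 FPKM was 5.49, 2.58 and 6.36 in the 3 libraries, against 0.872, 1.41 and 1.83 in MRL/mpj. In MRL/lpr+MSC this ratio was 2.18, 5.61 and 3.21, so that each library of the lpr genotype lay above all MRL/mpj libraries.

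Sequences of 2 members are shown because they tie the counts to the genes and to the oligonucleotides of the study. Itga2 (ENSMUSG00000015533) lies at chr13:114833081-114932100 on the minus strand of GRCm38, and Thbs1 (ENSMUSG00000040152) at chr2:118111876-118127133 on the plus strand. The primer list of the study gives these quantitative PCR primers, written 5′ to 3′ with no part marked:
Itga2 forward: tggtagttgtgaccgatgg
Itga2 reverse: ctgctatgccgaacctcagt
Thbs1 forward: aaccagtgtgtggaaaggca
Thbs1 reverse: ctgctatgccgaacctcagt
The Itga2 forward primer matched the coding part of transcript Itga2-201 at bases 991 to 1009 (chr13:114875538-114875556), and the reverse primer matched bases 1070 to 1089 across an exon junction (chr13:114875223-114875477), for a product of 99 bp. The Thbs1 forward primer matched the 3′ UTR of Thbs1-201 at bases 4971 to 4990 (chr2:118126256-118126275). The reverse primer listed for Thbs1 has the same letters as that of Itga2, and its closest stretch in any Thbs1 transcript differed at 7 of 20 bases. The list as printed therefore holds a complete pair for Itga2 and only the forward primer for Thbs1. PCR values were not used here.

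RefSeq holds the 250 bases before the start of Itga2 (chr13:114932101-114932350, minus strand) and of Thbs4 (chr13:92794819-92795068, minus strand), in GRCm38.p6. They are given for the member that passed the test and for the most abundant thrombospondin, in lower case with matches to GGGCGG on either strand in capitals:
Itga2: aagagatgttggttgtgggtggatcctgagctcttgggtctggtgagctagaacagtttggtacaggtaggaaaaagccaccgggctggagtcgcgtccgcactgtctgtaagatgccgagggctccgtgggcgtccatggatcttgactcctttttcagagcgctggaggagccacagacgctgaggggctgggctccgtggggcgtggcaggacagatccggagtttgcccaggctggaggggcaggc
Thbs4: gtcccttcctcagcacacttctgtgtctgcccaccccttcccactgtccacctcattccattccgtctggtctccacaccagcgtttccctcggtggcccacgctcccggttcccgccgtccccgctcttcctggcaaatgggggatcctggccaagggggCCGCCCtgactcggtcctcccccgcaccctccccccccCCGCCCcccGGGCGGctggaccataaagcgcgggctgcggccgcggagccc
Thbs4 held GGGCGG at 3 places and Itga2 at 0, where 32.7% of 32817 promoters of this length held at least 1. Neither window held TATAAA (12.4% of promoters), CCAAT (33.8%) or CACGTG (6.02%) on either strand. The window of Thbs4 was 70.8% G and C and that of Itga2 60.8%, against a median of 52.4%. Thbs1 and Sirpa were not in the promoter table.

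The first question was how the set differed between MRL/lpr and MRL/mpj, the comparison of the lupus-prone genotype with its control. Itga2 was the one member called, which means an adjusted p under 0.05 with a change of at least 1.5-fold, but it entered the test only through the MRL/lpr libraries, where it is high, so its call cannot be set beside those of genes read well in both groups. Thbs1, Thbs2, Thbs4 and Cd36 stood above, and Sirpa and Cacna2d1 below, every MRL/mpj library without passing, and Thbs3 and Cd47 overlapped. Over all 16697 genes tested, 3.41% were called higher and 2.38% lower, and 38.0% had groups that did not overlap, against 7 of the 9 members. The median log2 fold change of all genes was 0.02.

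Itga2 encodes integrin alpha2, which pairs with integrin beta1 to bind collagens and is known on platelets, natural killer cells and other cells. Its counts were 6, 5 and 4 reads in the MRL/mpj libraries, 39, 38 and 17 in MRL/lpr and 14, 12 and 8 in MRL/lpr+MSC. Scaled to the library, these were 0.300, 0.215 and 0.218 CPM in MRL/mpj, 1.36, 1.64 and 0.719 CPM in MRL/lpr and 0.727, 0.558 and 0.354 in MRL/lpr+MSC. The MRL/mpj values lay below all others, and replicate 1 of MRL/lpr+MSC reached the level of replicate 3 of MRL/lpr. Against MRL/mpj, Itga2 in MRL/lpr was 4.53-fold higher, a log2 fold change of 2.18 ± 0.472 (SE; 95% interval 1.06 to 3.30; limma adjusted p = 0.0380).

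This call rested on few reads. Itga2 passed the filter on low counts through the MRL/lpr libraries alone, and was not tested when any one of them was left out or when a CPM above 1 was required. Without any one MRL/mpj library the log2 fold change was between 2.09 and 2.32, with a limma adjusted p between 0.113 and 0.134. The call was lost each time. Over all genes, the calls fell from 967 to 218, 216 and 135 without MRL/mpj replicate 1, 2 and 3, so the loss was not particular to Itga2.

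Thbs1, the thrombospondin known for activating latent TGF-beta and for binding CD36 and CD47, was read at 3.80, 2.92 and 2.34 CPM in MRL/mpj and at 6.93, 16.3 and 7.19 CPM in MRL/lpr. Every MRL/lpr value lay above every MRL/mpj value, and replicate 2 stood apart within MRL/lpr. Gm29233, whose exons share 208 bases with Thbs1 on the opposite strand, had 0 reads in all 9 libraries. The log2 fold change was 1.62 ± 0.467 (SE; 95% interval 0.50 to 2.73), with an adjusted p of 0.0757 in limma. Without replicate 2 of MRL/lpr, Thbs1 was called, at a log2 fold change of 1.25 with an adjusted p of 0.0144. Over all genes, that omission raised the calls from 967 to 1483. With any other 1 library left out Thbs1 was not called, at a limma adjusted p between 0.0802 and 0.215.

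Thbs4 (ENSMUSG00000021702, chr13:92751590-92794818, minus strand) is a thrombospondin known in tendon, muscle and injured brain. It was read at 7.04, 10.5 and 10.7 CPM in MRL/mpj and at 37.3, 17.4 and 33.9 CPM in MRL/lpr. Here replicate 2 was the lowest of the MRL/lpr libraries, the reverse of Thbs1. The log2 fold change was 1.61 ± 0.399 (SE; 95% interval 0.65 to 2.57; adjusted p = 0.0551). Without replicate 2 of MRL/lpr it was 1.95 with an adjusted p of 0.00330, and passed. With any other 1 library left out Thbs4 did not pass, at a limma adjusted p between 0.0878 and 0.172.

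Thbs2 (ENSMUSG00000023885, chr17:14665500-14694235, minus strand), a matrix protein made by fibroblasts and by immature astrocytes, was read at 10.1, 10.2 and 8.66 CPM in MRL/mpj and at 15.0, 16.4 and 11.8 CPM in MRL/lpr. The groups did not overlap, and the log2 fold change was 0.57 ± 0.161 (SE; adjusted p = 0.0703), just under 1.5-fold. Without replicate 3 of MRL/lpr it passed, at 0.70 with an adjusted p of 0.0205, while calls over all genes rose from 967 to 1204. With any other 1 library left out Thbs2 did not pass, at a limma adjusted p between 0.0826 and 0.205.

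The other thrombospondins were not called. Thbs3 (ENSMUSG00000028047, chr3:89215180-89226837, plus strand) stood at 10.5 ± 1.67 CPM in MRL/mpj and 9.22 ± 1.21 CPM in MRL/lpr (SD, n = 3), a log2 fold change of -0.18 with a 95% interval of -0.57 to 0.22. Its exons share 318 bases with Mtx1 on the opposite strand, and no source says if counting was by strand, so reads of the pair cannot be told apart there. Comp, known for its role in cartilage, had 24 to 29 reads per library in MRL/mpj and 12 to 33 in MRL/lpr, with a log2 fold change of -0.71 ± 0.366 (SE; adjusted p = 0.237).

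**Figure D2:**
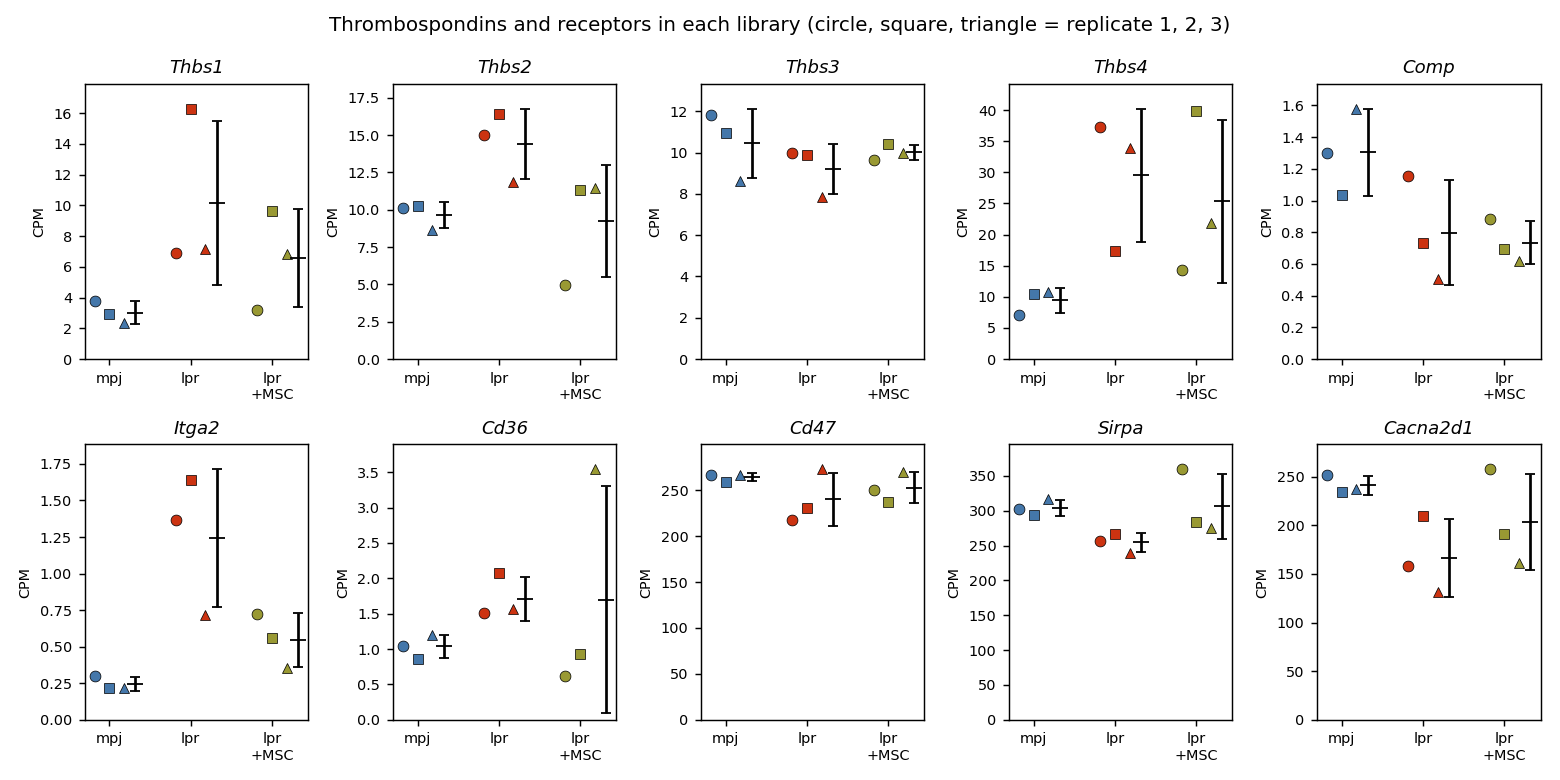
CPM of each gene in each library (linear axes from 0), with the mean and SD of each group in black beside the points. The 3 MRL/mpj libraries lie below all MRL/lpr libraries for Thbs1, Thbs2, Thbs4, Itga2 and Cd36 and above them for Sirpa and Cacna2d1.

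Among the other receptors, Cacna2d1 (ENSMUSG00000040118, chr5:15934691-16374511, plus strand), the alpha2delta-1 subunit of calcium channels and the target of gabapentin, was read at 252, 234 and 237 CPM in MRL/mpj and at 158, 210 and 131 CPM in MRL/lpr. All MRL/lpr values were the lower ones. The log2 fold change was -0.56 ± 0.164 (SE; 95% interval -0.95 to -0.17; adjusted p = 0.0776). Without replicate 2 of MRL/lpr it was -0.73 with an adjusted p of 0.00670, and passed. With any other 1 library left out Cacna2d1 did not pass, at a limma adjusted p between 0.0873 and 0.204.

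Sirpa (ENSMUSG00000037902, chr2:129592835-129632228, plus strand), the receptor of CD47 on myeloid cells and neurons, was read at 302, 294 and 317 CPM in MRL/mpj and at 257, 267 and 240 CPM in MRL/lpr. The groups did not overlap, but the difference was small, with a log2 fold change of -0.25 ± 0.0691 (SE; adjusted p = 0.0649). Cd47 (ENSMUSG00000055447, chr16:49800533-49915010, plus strand) stood at 264 ± 4.54 CPM in MRL/mpj and 240.1 ± 29.0 CPM in MRL/lpr (SD, n = 3). Its log2 fold change of -0.14 had a 95% interval of -0.36 to 0.08, which leaves out a 1.5-fold change in either direction.

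Cd36 (ENSMUSG00000002944, chr5:17781690-17888801, minus strand), a scavenger receptor of macrophages, endothelium and platelets, had 20 to 22 reads per library in MRL/mpj and 37 to 48 in MRL/lpr. At 1.04 ± 0.169 against 1.71 ± 0.310 CPM (SD, n = 3), its log2 fold change was 0.71 ± 0.264 (SE; adjusted p = 0.125). In hippocampal tissue, a difference in the number of cells of a type and one in the RNA per cell cannot be told apart, for this and for every other gene.

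The second question was whether MRL/lpr+MSC differed from MRL/mpj. No member was called, with 8 of 9 tested, where 3.43% of 16196 genes were called in either direction. The groups did not overlap for 1 of the 8 members, Thbs4, where 29.6% of all genes did not. Thbs4 was read at 14.3, 39.8 and 21.8 CPM in MRL/lpr+MSC, all above MRL/mpj, with a log2 fold change of 1.34 ± 0.433 (SE; adjusted p = 0.132).

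Thbs1 in MRL/lpr+MSC was 3.22, 9.62 and 6.86 CPM, so that replicate 1 fell within the range of MRL/mpj. Its log2 fold change was 1.03 ± 0.449 (SE; adjusted p = 0.231). Without replicate 1 of MRL/lpr+MSC, Thbs1 and Thbs4 passed, at log2 fold changes of 1.44 and 1.67, while calls over all genes rose from 556 to 1346. With any other 1 library left out, neither passed. Replicate 1 was also the lowest library of its group for Thbs2, at 4.93 CPM against 11.3 and 11.5 in the others, and for Cd36, at 0.623 CPM against 0.929 and 3.54.

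Thbs2 and Thbs3 differed little between these groups, with log2 fold changes of -0.13 ± 0.317 and -0.05 ± 0.142 (SE). Cd47, at 253 ± 16.6 CPM, and Sirpa, at 306 ± 46.2 CPM (SD, n = 3), had log2 fold changes of -0.06 and 0.01. The 95% interval for Sirpa was -0.25 to 0.26. Cacna2d1 was read at 258, 191 and 161 CPM in MRL/lpr+MSC, a spread that took in the MRL/mpj range, with a log2 fold change of -0.27 ± 0.161 (SE; adjusted p = 0.374). Itga2 was under the filter on low counts; its 3 libraries lay above the 3 of MRL/mpj, and with all 9 libraries in one fit its log2 fold change was 1.03 ± 0.524 (SE; adjusted p = 0.320).

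The third question was whether MRL/lpr+MSC differed from MRL/lpr, the 2 groups that share the genotype and differ by the label of treatment. limma called 0 of 16758 genes, 0.00% higher and 0.00% lower, while 647 had an unadjusted p under 0.05. Library quality weights and limma-trend also called 0. The groups did not overlap for 2 of the 9 members: Sirpa, higher in MRL/lpr+MSC as were 4.27% of all genes, and Thbs2, lower as were 5.72%.

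For Itga2 the log2 fold change in MRL/lpr+MSC relative to MRL/lpr was -1.14 ± 0.445 (SE; 95% interval -2.21 to -0.07; adjusted p = 0.921). The MRL/lpr+MSC libraries alone did not meet the filter on low counts. Itga2 entered with the help of the MRL/lpr libraries, where it is high, and the interval does not account for that. Unlike against MRL/mpj, it was still tested without MRL/lpr replicate 1, 2 or 3, at log2 fold changes of -1.03, -0.93 and -1.46. The values for the trimeric thrombospondins were -0.70 ± 0.317 for Thbs2 and -0.59 ± 0.495 for Thbs1 (log2 fold change ± SE). Thbs4, at 25.3 ± 13.1 CPM in MRL/lpr+MSC against 29.5 ± 10.7 CPM in MRL/lpr (SD, n = 3), had a log2 fold change of -0.27, with a 95% interval of -1.33 to 0.79 that spans large changes in either direction. The intervals for Cd47, -0.19 to 0.35, and Sirpa, -0.03 to 0.55, were narrower. Since the comparisons share libraries, these values are not independent of those above.

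**Figure D3:**
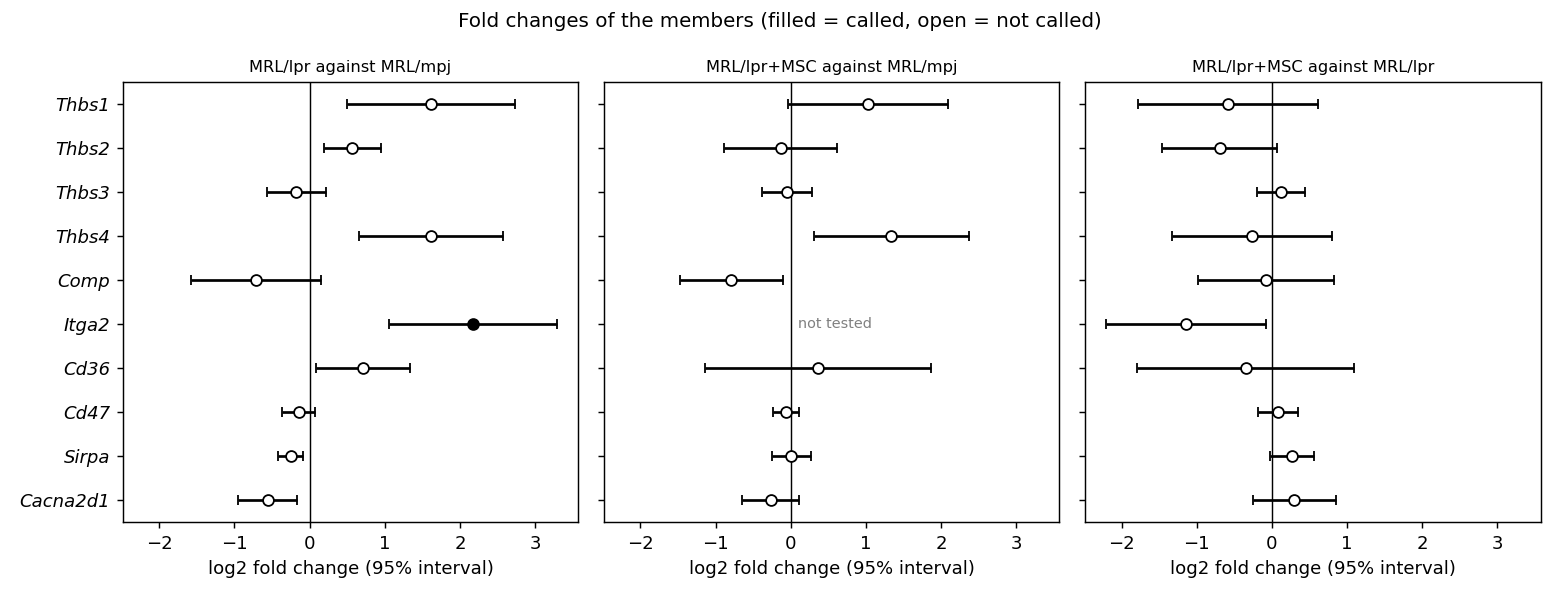
Log2 fold change of each gene with its 95% interval from limma in the 3 comparisons, on one scale. The filled point, Itga2 in MRL/lpr against MRL/mpj at 2.18, is the one called, where it entered the test through the MRL/lpr libraries alone, and it was not tested in MRL/lpr+MSC against MRL/mpj.

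The partners of the receptors were read from lists of the pathway. Itgb1, the beta1 subunit that integrin alpha2 needs, stood at 78.1 ± 7.01 CPM in MRL/mpj and 88.1 ± 7.90 CPM in MRL/lpr (SD, n = 3; log2 fold change 0.18; adjusted p = 0.267). Of the 12 integrin alpha genes listed, Itga2, with the limit given above, was the only one called in MRL/lpr against MRL/mpj, and none was called in MRL/lpr+MSC against MRL/mpj, where 11 were tested. Of 10 fibrillar, basement membrane and type 6 collagen genes, ligands of collagen-binding integrins, 1 was called in MRL/lpr against MRL/mpj, where 3.41% of all genes were called higher. The called collagen was Col5a2, a chain of fibrillar collagen, at 5.10, 5.46 and 3.54 CPM in MRL/mpj and 9.48, 11.6 and 7.70 in MRL/lpr (log2 fold change 1.01 ± 0.232 SE; adjusted p = 0.0440). All 10 collagen genes had positive log2 fold changes there, with a median of 0.59, where 52.8% of all genes did. The groups did not overlap for only 2 of the 10, where 38.0% of all genes did not. Col1a2, a chain of type 1 collagen, was at 50.1, 33.6 and 16.6 CPM in MRL/mpj, 46.8, 76.0 and 27.5 CPM in MRL/lpr and 12.7, 33.2 and 26.6 CPM in MRL/lpr+MSC. Its highest and lowest libraries, MRL/lpr replicate 2 and MRL/lpr+MSC replicate 1, were also those of the fibroblast markers, at 882 and 162 CPM summed. Col1a2 is itself one of these 9 markers, as are other collagens, so the sums are not independent of it, and the part of these cells in the collagen levels was not tested.

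The family of Cacna2d1 did not move one way. Cacna2d3, another alpha2delta gene of neurons, was at 126 ± 12.4 CPM in MRL/mpj and 75.1 ± 26.0 CPM in MRL/lpr (SD, n = 3), a log2 fold change of -0.80 (adjusted p = 0.0839). Cacna2d2 was at 19.8, 23.5 and 21.6 CPM in MRL/mpj, 75.0, 24.4 and 207 CPM in MRL/lpr and 19.5, 67.8 and 146 CPM in MRL/lpr+MSC. It therefore varied more within the lpr genotype than any member of the set, and its change in MRL/lpr of 1.75 on the log2 scale (SE 0.840) did not pass (adjusted p = 0.213). Cacna2d4 was called lower in MRL/lpr+MSC against MRL/mpj, at 2.37 ± 0.317 against 4.46 ± 0.293 CPM (SD, n = 3; log2 fold change -0.90; adjusted p = 0.0380). In MRL/lpr it was at 6.33, 2.67 and 2.54 CPM, with replicate 1 above and the others below every MRL/mpj library, and was not called.

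Around the matrix functions of thrombospondins, Mmp14, a membrane-bound metalloproteinase, was called higher in MRL/lpr against MRL/mpj, 34.5 ± 1.04 against 17.0 ± 1.61 CPM (SD, n = 3; log2 fold change 1.03; adjusted p = 0.00302). It was called in MRL/lpr+MSC against MRL/mpj too, at 0.92 with an adjusted p of 0.0280. It was the only one of 8 protease and matrix genes called in either comparison. Of 10 genes of TGF-beta activation and signalling, Tgfbr2, the type 2 TGF-beta receptor, was called in both, by 0.93 on the log2 scale in MRL/lpr (adjusted p = 0.0471) and by 0.59 in MRL/lpr+MSC (adjusted p = 0.0445). Over all genes, 3.41% were called higher in MRL/lpr against MRL/mpj. In MRL/lpr+MSC against MRL/mpj, 3.43% were called in either direction.

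Other partners were not called in any comparison. This held for 14 further thrombospondin receptors such as Lrp1 and Itgav, with a median log2 change of 0.15 for MRL/lpr over MRL/mpj, for 8 genes around Cd36 (median 0.54), for 9 genes of the Cd47 and Sirpa axis, of which 6 were tested (median -0.06), and for 10 astrocyte genes that act on synapses (median 0.23). The last 3 lists include members of the set. Of the 8 genes around Cd36, 7 had MRL/lpr and MRL/mpj groups that did not overlap, 5 higher and 2 lower, where 38.0% of all genes did not overlap.

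By the rule fixed for likeness, Dennd2d and Mad2l1bp were among the 3 genes whose log2 CPM followed Itga2 most closely over the 9 libraries, of 17112 genes. Dennd2d was at 0.272 to 0.400 CPM in MRL/mpj, 0.888 to 1.94 in MRL/lpr and 0.619 to 0.883 in MRL/lpr+MSC. Like Itga2, it was read at few counts. The resemblance is a description of these libraries, which share their group differences and their depth.

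Libraries differed in the markers of other cells, and these moved beside several members. Summed over 8 T and NK cell markers, levels were 0.688 to 0.849 CPM in MRL/mpj, where 3 or 4 of the 8 were at 0, 4.53 to 17.5 in MRL/lpr and 1.04 to 3.72 in MRL/lpr+MSC. Of the 8, 6 passed the filter in MRL/lpr against MRL/mpj, through the MRL/lpr libraries where they are high, and none passed in MRL/lpr+MSC against MRL/mpj, so calls of these genes are not given as support. Cd3g, a chain of the T cell receptor complex, had 0 reads in every MRL/mpj library, 84, 43 and 19 in MRL/lpr and 1, 4 and 14 in MRL/lpr+MSC. The 3 groups stood in the same order as for Itga2, although within MRL/lpr+MSC replicate 1 had the highest Itga2 and the lowest sum, and the part of these cells in the Itga2 level was not tested. Platelet markers, 8 genes, ran from 6.32 to 7.74 CPM in MRL/mpj and from 6.13 to 10 in MRL/lpr, and none of the 5 tested was called. In replicate 2 of MRL/lpr, 2 of the platelet markers were at 0.

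Choroid plexus markers, 8 genes, summed to 172 to 714 CPM in MRL/mpj, but to 1098, 9746 and 134 CPM in MRL/lpr and to 104, 4905 and 584 CPM in MRL/lpr+MSC. Fibroblast markers, 9 genes, were 226 to 411 CPM in MRL/mpj, 257 to 882 CPM in MRL/lpr and 162 to 578 CPM in MRL/lpr+MSC. In both lpr groups replicate 2 was the highest library for choroid plexus, fibroblast and Thbs1, and replicate 1 of MRL/lpr+MSC was the lowest of its group for fibroblast, Thbs1 and Thbs2. Without replicate 2, the difference in Thbs1 between MRL/lpr and MRL/mpj was smaller and was called, as given above.

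Peripheral myeloid markers, 8 genes, were 19.7 to 40.7 CPM in MRL/mpj, 33.0 to 100.2 in MRL/lpr and 9.39 to 47.2 in MRL/lpr+MSC. Microglial markers, 8 genes, were 308 to 337 CPM in MRL/mpj, 240.1 to 307 CPM in MRL/lpr and 241 to 277 CPM in MRL/lpr+MSC. Of these, 1, Fcrls, was called lower in each lpr group against MRL/mpj. Endothelial markers were 315 to 375 CPM in MRL/mpj, 368 to 380 CPM in MRL/lpr and 381 to 418 CPM in MRL/lpr+MSC. Cldn5 was called higher in each lpr group against MRL/mpj. Astrocyte, mural, oligodendrocyte and erythroid lists held no call in MRL/lpr against MRL/mpj except Hbb-bt, a globin gene, which was lower. The same held in MRL/lpr+MSC against MRL/mpj. Thalamic neuron markers, 8 genes, were 126 to 169 CPM in MRL/mpj, 216, 153 and 252 CPM in MRL/lpr and 90.0, 180 and 271 CPM in MRL/lpr+MSC. Of the 8, 4 did not overlap in MRL/lpr against MRL/mpj, where 38.0% of all genes did not, and none was called. Within each lpr group the libraries stood in the same order as for Cacna2d2, and the part of thalamic tissue in that gene was not tested.

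All 10 hippocampal neuron markers were read in every library, but so were all thalamic, striatal, choroid plexus and fibroblast markers, so presence alone does not check the dissection. The sum of the hippocampal markers was 1729 to 1954 CPM in MRL/mpj, 1083 to 1688 CPM in MRL/lpr and 1221 to 1543 CPM in MRL/lpr+MSC. Of these 10 markers, Fibcd1 and Spink8 were called lower in MRL/lpr against MRL/mpj, where 2.38% of all genes were called lower. Fibcd1 was also called lower in MRL/lpr+MSC against MRL/mpj. Striatal neuron markers, 8 genes, were 177 to 197 CPM in MRL/mpj, 205 to 255 CPM in MRL/lpr and 185 to 325 CPM in MRL/lpr+MSC, with Rgs9 called higher in MRL/lpr. Replicate 3 of MRL/lpr, the library with the lowest hippocampal sum, also had the lowest Cacna2d1 and Sirpa of all libraries. The part of dissection in these levels was not tested.

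**Figure D4:**
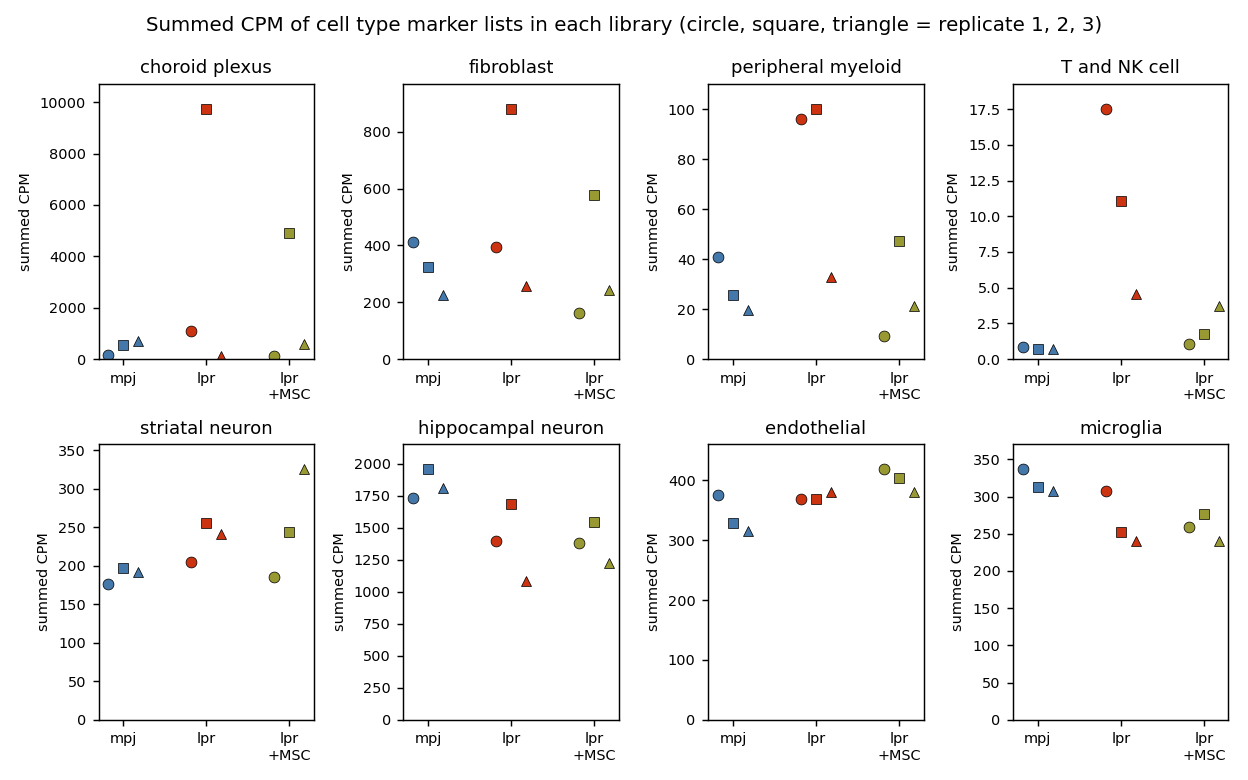
Summed CPM of the marker genes of 8 cell types in each library (linear axes from 0), with points coloured by group. Choroid plexus reaches 9746 CPM in one MRL/lpr library and 134 in another, and T and NK cell markers exceed 4 CPM in MRL/lpr only.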

How the data were processed

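Poly-A RNA of the hippocampus was sequenced in 9 libraries, 3 for each of 3 groups. Per the methods of the study, the authors used STAR for alignment to mm10 and HTSeq for gene counts over a GENCODE model; the labels name TopHat2 and GRCm38. The deposited matrix holds raw counts for 47643 genes, here entered as another unit because its column separator was not read as a table, and 47224 matched a GENCODE symbol. The authors also deposited FPKM, counts divided by gene length and library size, used here for levels; each table matched its own column of the matrix. Columns of values that no sample could be given numbered 0, as did entries without a gene. Library totals ran from 19475804 to 26912031 counts, so that 3 counts, the limit of a 0, were 0.105 to 0.163 CPM. Intervals cover counting error and library spread only.

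Groups came from the labels. Counts were scaled by TMM (trimming 30% of log ratios and 5% of levels). Genes that reached, in at least 3 libraries, the CPM that 10 counts give at median library size, with 15 counts in all, were tested with voom of limma 3.58.1 (run in R 4.3.3 with statmod 1.5.0), each comparison on its own 6 libraries, with Benjamini-Hochberg adjustment over all genes tested. A call needs an adjusted p under 0.05 and a 1.5-fold change. The plan named a quasi-likelihood test on counts, which was not run for the reason of the unit; voom, listed in the plan as another way, took its place. The procedure was run on simulated counts with the same spread beyond counting error for every gene and library. The MRL/lpr libraries here differ more among themselves than the MRL/mpj libraries do. The simulation therefore cannot show how the test performs on them. Replicate numbers, which the labels do not tie to a litter or batch, did not enter the fit.

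The members and gene lists were chosen with earlier results of these data known. Thbs1, Thbs4 and Itga2 also stand in gene groups that the study picked from its sequencing. Named genes are the members and Comp, up to 4 called genes for each list and comparison, Itgb1, and the 3 genes most like a called member, of which 1 is not reported here. Fas, Cd3g, Col1a2 and genes named as examples or for an overlap were added after their values were seen, as were Cacna2d2 and Cacna2d3. Sequences came from RefSeq, from GENCODE transcripts and from the primer list of the study.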

Additional observations from a re-analysis of the deposited data

How the results depend on the processing

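Thbs1, Thbs4 and Itga2 kept their direction in MRL/lpr against MRL/mpj under every alternative that tested them, but which of them were called depended on the fit. The members called there were 1 by voom, 3 (Thbs1, Thbs4 and Itga2) by limma-trend, 4 (with Thbs2) by library quality weights, and 0 with a CPM above 1 in at least 3 libraries, where Itga2 was not tested. Leaving out 1 library gave 0 to 3 members and 135 to 1483 genes. The genes were fewest without replicate 3 of MRL/mpj, and leaving out MRL/mpj replicate 1, 2 or 3, MRL/lpr replicate 1 or MRL/lpr replicate 2 each moved them by over 1.5 times from 967. Quality weights called 2065 genes. In MRL/lpr+MSC against MRL/mpj, quality weights called 2 members, Thbs1 and Thbs4, and 1177 genes against 556, and leaving out 1 library gave 0 to 2 members and 158 to 1346 genes, the most without replicate 1 of MRL/lpr+MSC; each of the 6 moved the genes by over 1.5 times. Quality weights and limma-trend were chosen after the data were seen. The causes were not tested.

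With the replicate number as a block, Thbs1 (log2 fold change 1.73, adjusted p = 0.0476) and Thbs4 (1.62, adjusted p = 0.0475) joined Itga2, for 3 members in MRL/lpr against MRL/mpj, and 283 genes were called in MRL/lpr+MSC against MRL/mpj. Correlations of same-numbered deviations, for replicates 1, 2 and 3, were 0.00067, 0.20 and 0.093 in MRL/lpr against MRL/mpj. They were -0.063, 0.078 and 0.21 in MRL/lpr+MSC against MRL/mpj, and -0.21, 0.23 and 0.35 in MRL/lpr+MSC against MRL/lpr. In each comparison, replicates 2 and 3 of the first-named group correlated best with the same number, and replicate 1 did not. MRL/mpj replicate 3 correlated better with MRL/lpr replicate 1, at 0.15. Whether the numbers pair the libraries was not settled.

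Small differences in MRL/lpr+MSC against MRL/mpj changed sign. Sirpa was -0.0020 with median-of-ratios size factors, -0.0031 with no filter and -0.076 with quality weights, and Thbs2 was 0.12 with quality weights. Without 1 library, Sirpa ran from -0.11 to 0.061, Thbs2 from -0.35 to 0.24, Thbs3 from -0.18 to 0.033 and Cd36 from -0.41 to 0.85. In MRL/lpr+MSC against MRL/lpr, Cd36 was 0.021 with quality weights and ran from -1.11 to 0.12, and Thbs4 from -0.65 to 0.049, without 1 library. No gene was called in this comparison under any alternative run. The quasi-likelihood and DESeq2 fits were not run. At 4 to 39 reads, the depth limits what can be said of Itga2, and Cd36 and Comp were also read at few counts.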
